A study of Mus musculus with 70 samples.

Results

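The 30 genes examined here make up the erythroid programme, the set that builds a red blood cell, and were chosen by symbol from a list. Of these, 29 had a row in all 10 deposited tables of expression, out of 48711 gene names in either bone, and all 29 passed the filter on low values. Ahsp, the chaperone of free alpha globin, had no row and was not analysed here. The study followed bone after 2 injuries in female C57BL/6 mice aged 12 weeks, for which no transgene, knockout or drug is named. Full fracture of the femur was sampled at 4 h and at 1, 3, 7 and 14 d with 5 libraries each, against 10 libraries of intact femur. Stress fracture of the ulna was sampled at 4 h, 3 d and 5 d with 5 libraries each and at 1 and 7 d with 4 each, against 9 libraries of intact ulna. The intact bones were left limbs. Injured samples carry the word periosteum in their time label, except the femurs at 7 and 14 d, which carry the word callus. The protocol, by contrast, describes whole sections of bone with the soft tissue removed. Marrow was spun out of the femur sections, and no such step is named for the ulna sections. RNA depleted of ribosomal RNA was read as single reads of 50 bases. By its title the series sets repair through cartilage, in the full fracture, beside repair that forms bone directly, in the stress fracture.

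Red blood cells form in the marrow from progenitors that depend on erythropoietin, a hormone of the kidney that acts through the receptor Epor. In these progenitors the transcription factors Gata1, Tal1 and Klf1 bind GATA, E-box and CACC motifs and switch on globin, heme and membrane genes together. Heme is made in steps that begin and end in the mitochondrion, and its globin partners are made at the same time. Some steps of heme synthesis serve every cell, whereas globins and the red cell membrane proteins are largely restricted to this lineage. In bulk bone, fewer erythroid cells and less RNA per cell cannot be told apart.

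The adult globin genes come in near-identical pairs, which decides how far their single values can be read. The coding parts of Hba-a1 and Hba-a2 differed at 1 of 429 bases, and those of Hbb-bs and Hbb-bt at 1 of 444. The differing base is in capitals in these stretches, 61 bases each, taken from the GENCODE M21 transcripts, with Hba-a1 and Hba-a2 on chromosome 11 and Hbb-bs and Hbb-bt on chromosome 7.
Hba-a1: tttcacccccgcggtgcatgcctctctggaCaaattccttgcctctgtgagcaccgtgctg
Hba-a2: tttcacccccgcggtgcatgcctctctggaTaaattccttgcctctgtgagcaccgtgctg
Hbb-bs: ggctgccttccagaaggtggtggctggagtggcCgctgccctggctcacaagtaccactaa
Hbb-bt: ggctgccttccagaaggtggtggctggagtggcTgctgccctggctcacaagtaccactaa
Of the 50-base windows of the Hba-a1 transcript, 67.5% stood unchanged in Hba-a2, and of those of Hba-a2, 86.9% stood in Hba-a1. The shares were 65.8% for Hbb-bs in Hbb-bt and 58.3% for Hbb-bt in Hbb-bs. A read from such a window cannot be given to 1 copy, so the pairs are described together and their single values are uncertain.

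Promoters are shown for 6 members because the members moved together: both beta globins, an alpha globin, the heme enzyme Alas2 and the regulator Klf1, all of which fell steeply, and Urod, which fell least in fractured femurs. Each run holds the 250 bases before the start of the gene in RefSeq (build GRCm38.p6), with matches of either strand in capitals. The GATA motifs searched were AGATAA and its variant AGATAG, then TGATAA and its variant TGATAG. The CACC motifs searched were CACACCC and the variant CCCACCC, whose matches may overlap.
Hba-a1 (chr11:32283422-32283671, plus strand): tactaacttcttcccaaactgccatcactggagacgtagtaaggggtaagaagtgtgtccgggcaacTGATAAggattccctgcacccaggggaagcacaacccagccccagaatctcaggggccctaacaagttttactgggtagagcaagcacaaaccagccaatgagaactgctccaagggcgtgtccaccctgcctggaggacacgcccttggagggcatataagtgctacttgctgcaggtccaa
Hbb-bs (chr7:103827929-103828178, minus strand): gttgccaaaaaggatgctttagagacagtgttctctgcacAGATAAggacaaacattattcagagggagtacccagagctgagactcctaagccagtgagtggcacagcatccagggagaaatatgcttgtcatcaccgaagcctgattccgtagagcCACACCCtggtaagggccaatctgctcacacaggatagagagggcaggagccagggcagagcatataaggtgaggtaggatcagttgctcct
Hbb-bt (chr7:103813924-103814173, minus strand): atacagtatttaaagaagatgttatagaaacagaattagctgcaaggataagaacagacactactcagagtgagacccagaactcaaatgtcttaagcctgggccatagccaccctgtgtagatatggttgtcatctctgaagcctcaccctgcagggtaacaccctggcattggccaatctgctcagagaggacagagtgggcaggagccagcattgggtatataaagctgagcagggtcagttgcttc
Alas2 (chrX:150547167-150547416, plus strand): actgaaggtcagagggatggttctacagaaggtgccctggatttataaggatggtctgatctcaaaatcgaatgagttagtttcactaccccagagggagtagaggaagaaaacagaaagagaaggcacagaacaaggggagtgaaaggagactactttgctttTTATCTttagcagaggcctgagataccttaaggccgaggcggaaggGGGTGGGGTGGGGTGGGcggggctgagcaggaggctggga
Klf1 (chr8:84901732-84901981, plus strand): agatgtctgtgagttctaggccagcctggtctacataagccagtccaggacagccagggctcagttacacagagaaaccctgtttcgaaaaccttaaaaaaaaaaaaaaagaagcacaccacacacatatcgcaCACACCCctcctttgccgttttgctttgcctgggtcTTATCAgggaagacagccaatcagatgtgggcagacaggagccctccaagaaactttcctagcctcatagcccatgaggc
Urod (chr4:116994414-116994663, minus strand): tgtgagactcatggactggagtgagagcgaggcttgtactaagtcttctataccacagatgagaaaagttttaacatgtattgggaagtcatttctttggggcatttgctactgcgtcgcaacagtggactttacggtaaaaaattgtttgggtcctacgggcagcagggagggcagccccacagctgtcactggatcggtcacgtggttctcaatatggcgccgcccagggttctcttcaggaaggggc
Hba-a1 held the motif TGATAA, while Hbb-bs held AGATAA upstream of CACACCC. In Klf1 the motif CACACCC stood on the plus strand and TGATAA on the reverse strand. Alas2 held AGATAA and a run of 3 overlapping CCCACCC motifs, all on the reverse strand. No letters of either class stood in these windows of Hbb-bt and Urod. RefSeq promoters were matched for 23 of the 29 members and these 2 classes, with E-boxes (CAGCTG or the variant CAGATG) as the third, were counted in them. A GATA motif stood in 17 of the 23 members, against 26.5% of all 32851 promoters. A CACC motif stood in 9 of 23, against 21.3% of all promoters, and an E-box in 5 of 23, against 25.5%. These matches describe letters and show no binding. GENCODE M21 starts 5 of the 6 genes shown, all but Urod, inside the window given here.

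Libraries held 8.12 to 30.8 M assigned reads (median 16.4 M), recovered from the deposited values. Values are in scaled RPKM (reads corrected for gene length and for depth, then scaled between libraries of a bone). Changes are log2 differences of scaled RPKM plus 0.1, injured minus intact, each with its standard error, and were called at an adjusted p under 0.05 (limma, Benjamini-Hochberg over all genes tested). A change of 1 on this scale is a doubling, and the added 0.1 holds down the change of genes near 0. One library stood apart: at 7 d after full fracture library 1 was the highest of its 5 for 27 of the 29 members, and its median member level was 2.25 log2 units below the mean of intact femurs, against 4.04 to 5.25 units below in the other 4. At 1 d after stress fracture, library 2 was the lowest of its 4 for all 29 members, and at 4 h after stress fracture library 5 was the highest of its 5 for all 29. For single members, fitted 7 d results are given with and without the first of these where leaving it out moves them by more than 1.5 times. Ratios, globin shares, marker sums and medians of lists at 7 d include that library.

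**Figure D1:**
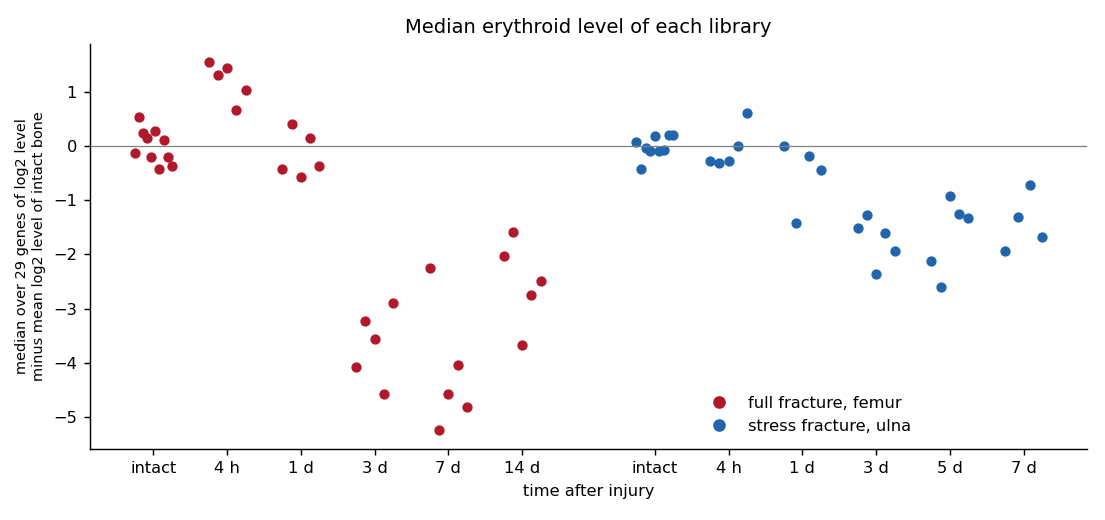
Each point is 1 library, placed by the median over 29 erythroid genes of its log2 level minus the mean log2 level in intact bones of the same kind (vertical axis, log2 units), by bone and time (horizontal axis, intact at the left of each bone). Fractured femurs at 7 d run from -5.25 to -2.25, and the highest of them is library 1.

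Fractured femurs carried more erythroid RNA than intact femurs at 4 h and far less from 3 d on. At 4 h, 28 of 29 members rose, with a median of 1.20 over the 29 (range 0.66 to 1.94), where 28.3% of all genes tested rose. Gata1 was the 1 member not called there, at 0.89 ± 0.46 (adjusted p = 0.0979, limma). For 19 members every femur at 4 h was above every intact femur, against 13% of all genes. At 1 d the members lay near the intact level, with a median of -0.13. Sptb, Ank1 and Epor fell there, where 24.8% of all genes fell.

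From 3 d on the whole set was lower in fractured femurs. All 29 members fell at 3 d (median -3.76), at 7 d (median -4.26) and at 14 d (median -2.58), where 28%, 33.6% and 27% of all genes tested fell. With all libraries, the largest fall was that of Slc4a1 at each of the 3 times and the smallest was that of Urod. Without library 1 at 7 d the largest was that of Cldn13 (-6.16, against -6.10 for Slc4a1). At 3 and 7 d every fractured femur was below every intact femur for all 29 members, an order seen for 14.2% and 17.1% of all genes. At 14 d this held for 28 members, all but Urod, against 13.6% of all genes. The median of all genes tested was between -0.08 and -0.03 at the 5 femur times. Without library 1 of the 7 d femurs, all 29 members fell at 7 d with a median of -4.73. Over all alternatives and left-out libraries the median ran from -3.88 to -2.64 at 3 d. It ran from -4.73 to -2.92 at 7 d and from -2.77 to -2.09 at 14 d, so the size of the falls depends on the processing.

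Stress fractured ulnas showed no called change at 4 h and a fall of every member from 3 d. No member was called at 4 h by limma, none had an unadjusted p under 0.05, and none was called in the authors' deposited table, with a median of -0.04 where 5.51% of all genes rose and 5.19% fell. At 1 d all 29 values lay below 0 (median -0.52), but Urod alone fell, at -0.57 ± 0.16 (adjusted p = 0.0180, limma), where 3.98% of all genes fell. Without the low library 2 of that time no member was called and the median was -0.25. All 29 members fell at 3 d (median -1.79), at 5 d (-1.71) and at 7 d (-1.46), where 17.6%, 20.9% and 16% of all genes fell. Injured and intact ulnas did not overlap for all 29 members at 3 and 5 d and for 27 at 7 d (all but Ank1 and Ermap), against 5.76%, 8.5% and 7.32% of all genes.

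**Figure D2:**
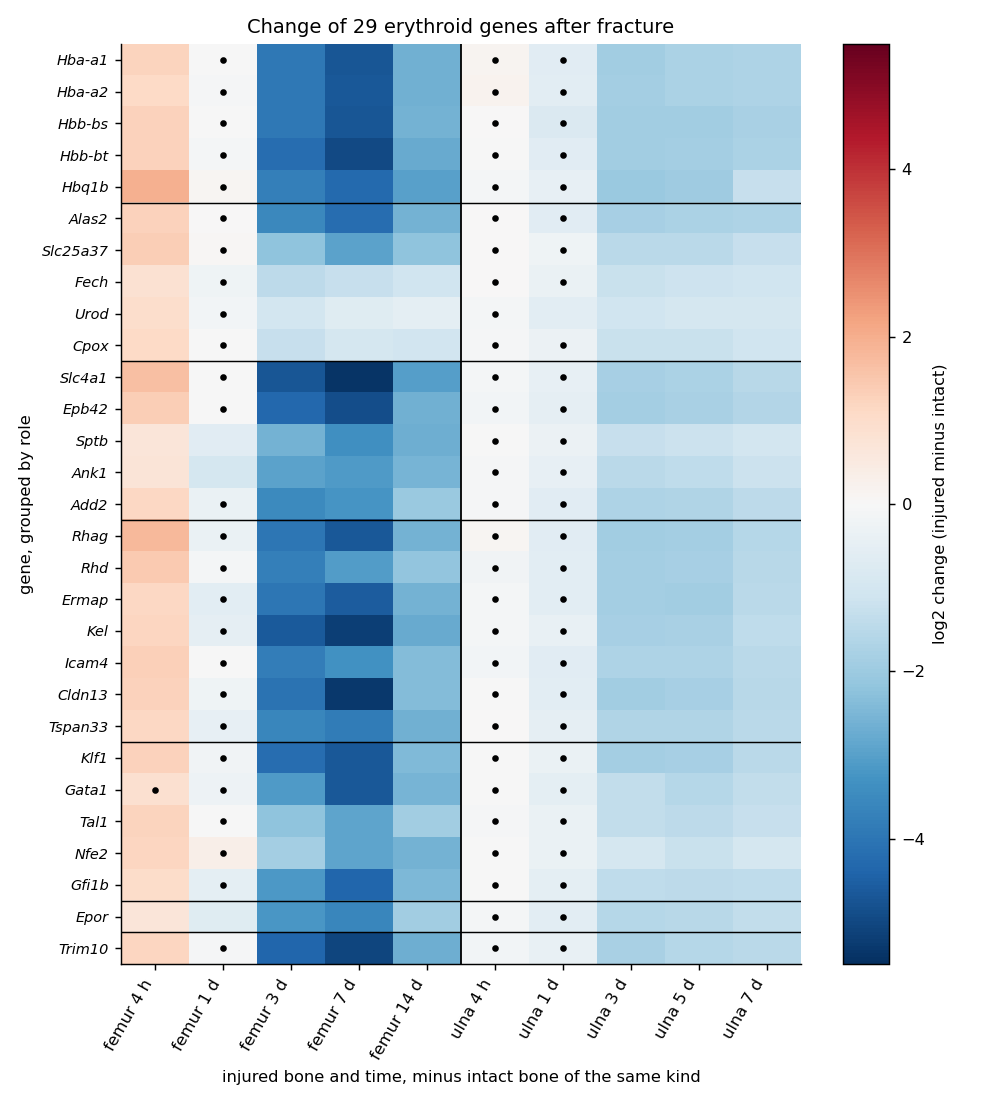
Log2 change of each of 29 erythroid genes (rows, grouped by role) in injured minus intact bone at each time (columns, femur left and ulna right of the line); a black dot marks a change that was not called at an adjusted p under 0.05. In femurs at 7 d the changes run from -5.40 (Slc4a1) to -0.68 (Urod), and in ulnas from 3 to 7 d from -2.03 to -0.96.

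The regulators fell with the genes they are known to switch on, but with unequal changes. Klf1 (chr8:84901928-84905291, plus strand of mm10) binds CACC boxes and drives adult beta globin. It had 46.1, 52.4, 64.6, 32.5 and 41.1 scaled RPKM in femurs 4 h after fracture, 0.655, 1.83, 0.579, 0.610 and 1.52 at 3 d and 3.89, 0.275, 0.688, 0.745 and 0.148 at 7 d, against 12.9 to 29.6 (median 18.96) in intact femurs. All 5 femurs at 4 h were above all intact ones, and all 10 at 3 and 7 d were below them. The changes were 1.29 ± 0.40 at 4 h, -4.21 ± 0.40 at 3 d and -4.65 ± 0.40 at 7 d (adjusted p of 0.00699 or smaller, limma). Without library 1 the 7 d change of Klf1 was -5.25 ± 0.33. Gata1, the zinc finger factor that red cell and platelet precursors share, had 2.21, 0.0650, 0.248, 0.234 and 0.0931 scaled RPKM at 7 d, against 7.27 to 16.7 (median 9.97) in intact femurs, a change of -4.67 ± 0.46. Its highest 7 d value was library 1, and the other 4 lay at or under 0.248, so that its change was -5.32 ± 0.39 without that library.

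Gfi1b, a repressor needed by both lineages, fell too, with 2.52, 0.144, 0.103, 0.546 and 0.124 scaled RPKM at 7 d, against 6.29 to 15.8 (median 8.96) in intact femurs (-4.36 ± 0.43, and -4.99 ± 0.37 without library 1). Tal1, the basic helix-loop-helix partner of Gata1, and Nfe2, a leucine zipper factor of late red cells and platelets, kept more of their level. Tal1 had 3.21, 1.43, 1.64, 1.52 and 1.23 scaled RPKM at 7 d, against 10.5 to 22.3 (median 13.2) in intact femurs (-2.91 ± 0.21). Neither Gfi1b nor Tal1 overlapped the intact range at 7 d. Nfe2 had 2.13, 7.06, 3.60, 1.72 and 9.77 scaled RPKM at 3 d and 2.79, 4.49, 1.47, 1.91 and 2.06 at 14 d, against 11.5 to 21.4 (median 14.4) in intact femurs. At 14 d the fall of Nfe2 (-2.60 ± 0.30) was the largest of the 5, next to -2.55 ± 0.46 for Gata1. In ulnas at 3 d Klf1 fell by more than the other 4 regulators (-1.86 ± 0.27), and Nfe2 by less (-0.96 ± 0.18). No test compared these regulators with each other.

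Epor, the erythropoietin receptor, had 6.33, 9.47, 5.23, 8.44 and 7.17 scaled RPKM at 1 d and 2.13, 0.866, 0.639, 0.781 and 0.558 at 7 d after full fracture, against 8.10 to 19.1 (median 11.3) in intact femurs. It was among the 3 members below intact already at 1 d (-0.69 ± 0.28, adjusted p = 0.0376, limma), although injured and intact femurs overlapped. That 1 d call was lost with RPKM as deposited, with no filter on low values and when any of 6 single libraries was left out. At 7 d the change was -3.57 ± 0.28. In ulnas Epor had 6.12, 9.57, 4.81, 6.94 and 5.05 scaled RPKM at 3 d, against 14.4 to 23.1 (median 18.9) in intact ulnas, with no overlap (-1.58 ± 0.23).

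Among the heme genes the erythroid members fell more than those that every cell uses. Alas2 (chrX:150547375-150570638, plus strand of mm10) is the erythroid enzyme of the first and limiting step of heme synthesis. It had 315, 182, 184, 152 and 164 scaled RPKM at 4 h, 5.36, 7.74, 6.69, 4.04 and 13.4 at 3 d and 14.4, 2.11, 3.47, 4.01 and 3.30 at 7 d, against 56.3 to 109 (median 80.8) in intact femurs. Its change at 7 d was -4.20 ± 0.31, an 18.4-fold fall. Slc25a37, which carries iron into the mitochondrion of red cell precursors, had 9.63, 3.88, 4.58, 5.29 and 4.64 scaled RPKM at 7 d, against 34.6 to 56.3 (median 39.8) in intact femurs (-2.94 ± 0.19).

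Urod, Cpox and Fech, which act in the last steps of heme synthesis in all cells, moved far less. Urod (chr4:116989965-116994413, minus strand of mm10) had 15.4, 14.9, 13.03, 9.65 and 12.8 scaled RPKM at 7 d, against 17.01 to 24.1 (median 21.7) in intact femurs, a change of -0.68 ± 0.11 (adjusted p = 2.87e-06, limma). Cpox had 16.2, 10.97, 11.7, 12.3 and 11.9 at 7 d, against 17.8 to 34.4 (median 24.95), and changed by -0.98 ± 0.15. Fech, which inserts the iron, had 26.9, 23.97, 22.97, 20.1 and 24.1, against 46.9 to 69.02 (median 59.9), and changed by -1.28 ± 0.11. For all 3 genes every 7 d femur was still below every intact femur. At 4 h these 3 rose, by 0.96, 1.11 and 0.86 log2 units. In ulnas at 3 d they fell, with -1.09 ± 0.15 for Urod, -1.22 ± 0.19 for Cpox and -1.24 ± 0.16 for Fech.

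The globins, which carry oxygen, were the most abundant members and fell together. Hbb-bs (chr7:103826534-103828096, minus strand of mm10), a beta globin, had 6344, 4533, 4088, 3329 and 3991 scaled RPKM at 4 h, 80.3, 179, 124, 54.04 and 239 at 3 d and 273, 37.6, 66.1, 38.4 and 56.9 at 7 d after full fracture, against 1106 to 2457 (median 2029) in intact femurs. All 5 femurs at 4 h stood above the intact range and all 10 at 3 and 7 d below it. The changes were 1.28 ± 0.37, -3.92 ± 0.37 and -4.71 ± 0.37. Hba-a1, an alpha globin, had 84.1, 9.75, 16.5, 11.3 and 16.6 scaled RPKM at 7 d, against 318 to 680.0 (median 569.8) in intact femurs (-4.69 ± 0.38). At 7 d the partner copies Hba-a2 (-4.66 ± 0.36) and Hbb-bt (-4.96 ± 0.39) changed by close values.

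Together the 4 adult globins made up 0.0198% to 0.165% (median 0.0322%) of all RPKM of a femur at 7 d, against 0.636% to 1.60% (median 1.24%) in intact femurs. In ulnas the share was 0.340% to 0.850% at 3 d, against 1.66% to 2.81% in intact ulnas. Hbb-bs had 1012, 1119, 462, 1025 and 828 scaled RPKM in ulnas at 3 d, against 2231 to 4579 (median 3198) in intact ulnas, with no overlap (-1.93 ± 0.30). Hbq1b, a theta globin with little RNA, had 18.03, 19.03, 14.3, 10.6 and 13.4 at 4 h, 0, 0.577, 0.459, 0.0807 and 0.160 at 3 d and 0.652, 0, 0.0520, 0.197 and 0 at 7 d in femurs, against 2.37 to 6.13 (median 4.30) in intact femurs. Its 4 h rise was the largest of all members (1.94 ± 0.46), and some libraries at 3 and 7 d held no read of it, so the fitted falls (-3.78 ± 0.46 and -4.26 ± 0.46) depend on the added 0.1.

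**Figure D3:**
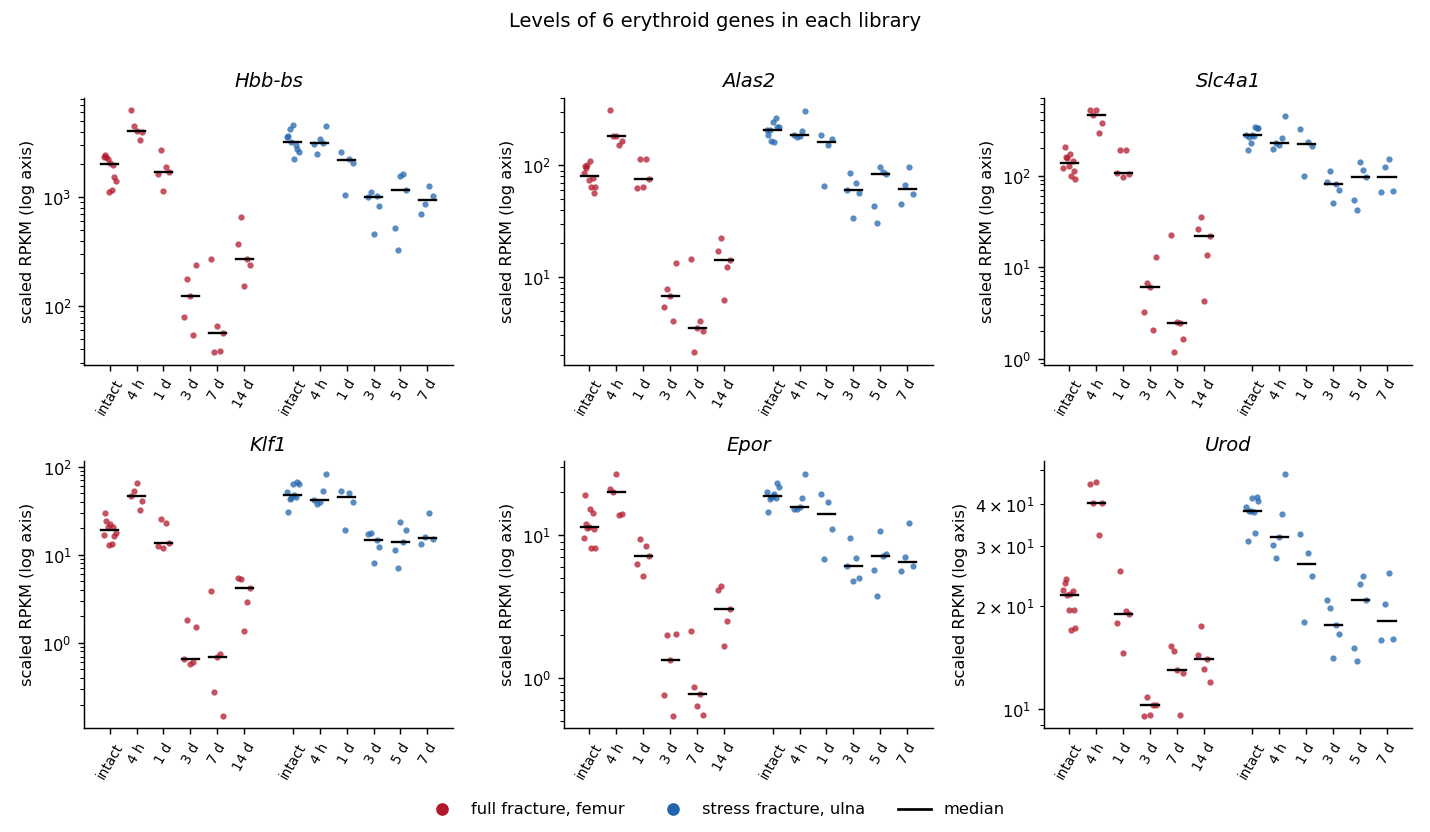
Scaled RPKM (log axis) of 6 erythroid genes in each library, by bone and time, with intact bone at the left of each bone; points are libraries and lines are medians. Hbb-bs spans 37.6 to 273 in femurs at 7 d and 1106 to 2457 in intact femurs, whereas Urod spans 9.65 to 15.4 at 7 d and 17.0 to 24.1 in intact femurs.

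Among the membrane genes, the transporter and its close partner fell most and the skeleton less. Slc4a1 (chr11:102348824-102366203, minus strand of mm10) is the anion exchanger known as band 3. It had 523, 464, 520.2, 289 and 378 scaled RPKM at 4 h, 3.24, 6.66, 6.08, 2.06 and 12.97 at 3 d, 22.7, 1.18, 2.54, 2.48 and 1.64 at 7 d and 26.5, 34.9, 4.33, 13.6 and 21.9 at 14 d, against 91.4 to 205 (median 136) in intact femurs. It was 3.14-fold higher at 4 h and 42.1-fold lower at 7 d. Without library 1 its 7 d change was -6.10 ± 0.39, against -5.40 ± 0.47 with it. Epb42, protein 4.2, which binds band 3, had 2.06, 0.0780, 0.146, 0.211 and 0.105 scaled RPKM at 7 d, against 7.55 to 14.98 (median 10.6) in intact femurs (-4.89 ± 0.41, and -5.54 ± 0.33 without library 1).

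Sptb and Ank1, beta spectrin and the ankyrin that ties it to band 3, fell already at 1 d. Sptb had 18.8, 28.2, 28.1, 31.6 and 25.3 scaled RPKM at 1 d, against 32.6 to 55.4 (median 39.1) in intact femurs, a change of -0.62 ± 0.17 (adjusted p = 0.00359, limma), and all 5 fractured femurs were below the intact range. Ank1 had 7.90, 11.4, 8.10, 12.3 and 8.13 at 1 d, against 15.03 to 26.99 (median 18.5), a change of -0.99 ± 0.19 (adjusted p = 6.22e-05, limma), again with no overlap, an order seen for 9.54% of all genes. At 7 d they changed by -3.39 and -3.10, against -5.40 for Slc4a1. Add2, the beta adducin of the same skeleton, had 0.944, 0.260, 0.305, 0.317 and 0.246 scaled RPKM at 7 d, against 3.43 to 6.36 (median 4.25) in intact femurs, and changed by -3.49 ± 0.25 at 3 d and -3.25 ± 0.25 at 7 d. Skeletal muscle also uses Sptb and Ank1, and 6 of 7 muscle markers fell at 1 d (median -1.12), where 24.8% of all genes fell. The part of muscle in the 1 d falls of Sptb and Ank1 was not tested.

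The surface proteins fell together after full fracture, with a median of -3.99 over the 7 at 3 d and -4.59 at 7 d. Kel, a protease that carries the Kell blood group in human, had 0.483, 0.970, 0.580, 0.232 and 1.62 scaled RPKM at 3 d and 2.98, 0.190, 0.245, 0.386 and 0.164 at 7 d, against 14.6 to 27.8 (median 17.8) in intact femurs, with no overlap. Its changes were -4.64 ± 0.41 and -5.16 ± 0.41, the last of which was -5.80 ± 0.33 without library 1. Cldn13, a claudin found on red cell precursors of mice, had 4.38, 0.0495, 0.318, 0.268 and 0 at 7 d, against 8.81 to 27.4 (median 15.9) (-5.29 ± 0.53), and library 5 held no read of it. Its change was -6.16 ± 0.40 without library 1.

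Rhag, the ammonium transporter of the Rh complex, rose more at 4 h than any member but Hbq1b, with 43.97, 43.5, 51.1, 23.9 and 30.8 scaled RPKM, against 6.70 to 22.6 (median 10.7) in intact femurs (1.79 ± 0.42), and all 5 lay above the intact range. At 7 d it changed by -4.67 ± 0.42, or by -5.31 ± 0.34 without library 1. Its partner Rhd had 9.12, 1.72, 2.22, 2.15 and 1.81 scaled RPKM at 7 d, against 16.2 to 35.6 (median 23.9) in intact femurs, the smallest fall of the 7 at that time (-3.06 ± 0.32). Ermap, which carries the Scianna blood group in human, had 2.93, 0.299, 0.356, 0.458 and 0.321 at 7 d, against 11.7 to 24.3 (median 16.02) (-4.59 ± 0.35). Icam4, an adhesion protein that carries the LW blood group in human, had 0.977, 0.291, 0.125, 0.394 and 0.375, against 2.85 to 6.97 (median 4.88) (-3.35 ± 0.34). All of these 7 d femurs lay below the intact ranges. Tspan33, a tetraspanin, had 1.84, 0.295, 0.472, 0.509 and 0.469, against 7.20 to 16.4 (median 9.63) (-3.86 ± 0.30). In ulnas the 7 lay close together, between -1.91 and -1.65 at 3 d. Trim10, a RING finger protein needed for the last steps of red cell differentiation in mouse cells, had 5.63, 0.259, 0.538, 0.413 and 0.202 scaled RPKM at 7 d, against 18.1 to 32.2 (median 23.9) in intact femurs (-5.04 ± 0.46, and -5.79 ± 0.36 without library 1).

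In stress fractured ulnas these genes also fell. Slc4a1 had 86.1, 113, 49.7, 80.99 and 69.1 scaled RPKM at 3 d, 54.00, 42.6, 140.2, 115 and 96.1 at 5 d and 66.5, 125, 151 and 68.4 at 7 d, against 190.4 to 336 (median 277) in intact ulnas. The injured ulnas lay below the intact range at all 3 times, with changes of -1.83 ± 0.28, -1.75 ± 0.28 and -1.51 ± 0.30 (adjusted p of 2.38e-04 or smaller, limma). Alas2 had 60.7, 85.8, 33.5, 69.3 and 56.4 scaled RPKM at 3 d and 45.5, 66.9, 97.1 and 55.5 at 7 d, against 164 to 268 (median 207) in intact ulnas (-1.82 ± 0.26 and -1.70 ± 0.28). Klf1 had 17.03, 17.7, 8.13, 14.6 and 12.4 at 3 d and 13.2, 15.98, 29.4 and 15.3 at 7 d, against 30.6 to 67.3 (median 47.9) in intact ulnas (-1.86 ± 0.27 and -1.49 ± 0.29). Neither gene overlapped with intact ulnas at these times. Kel had 10.3, 13.00, 5.68, 9.84 and 8.60 at 3 d, against 20.97 to 38.9 (median 35.2) (-1.84 ± 0.28), and Trim10 had 16.9, 21.6, 10.4, 19.4 and 12.6, against 41.8 to 65.4 (median 57.1) (-1.79 ± 0.26). At 5 d the group medians over the members by role were -1.85 for globins, -1.24 for heme and iron genes, -1.64 for membrane genes, -1.81 for surface proteins and -1.46 for regulators. In femurs at 7 d these medians were -4.69, -1.28, -3.39, -4.59 and -4.36 in the same order, so that the heme and iron genes stood nearest to intact there. These medians describe the lists, and no list was tested.

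Full and stress fracture were compared at matched times through the difference of their responses (injured minus intact femur, less injured minus intact ulna). The bones came in separate tables and the injury differs with the bone, so injury and bone cannot be told apart. Marrow was spun out of the femur sections, with no such step named for the ulna sections. That step cannot be told apart from injury and bone either. At 4 h 22 of 29 members responded more after full fracture (median difference 1.24), where 17.8% of all genes did. Slc4a1 differed by 1.74 ± 0.56 (adjusted p = 0.0122, limma), Alas2 by 1.24 ± 0.42 and Urod by 1.08 ± 0.19. Hba-a1, Hba-a2, Cldn13, Gata1, Gfi1b, Epor and Trim10 were not called, at 1.03, 0.87, 1.29, 0.88, 1.02, 0.75 and 1.32. Of the 22 calls, 13 held under every alternative and with each library left out. At 1 d no difference was called by limma (median 0.33), Urod had an unadjusted p under 0.05 (0.42 ± 0.19), and 13.8% of all genes were called higher and 13.4% lower.

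At 3 d 25 members fell further after full fracture (median difference -1.90), where 13.6% of all genes did. At 7 d 26 did (median -2.92), where 23.5% of all genes did. Over all alternatives and left-out libraries the median difference ran from -2.11 to -1.20 at 3 d and from -3.41 to -1.63 at 7 d. Fractured femurs were labelled periosteum at 3 d and callus at 7 d, whereas injured ulnas were labelled periosteum at both times. At 7 d the labelled tissue therefore differs along with injury and bone, and its part was not tested. Under every alternative and with each library left out, 19 of the 25 calls and all 26 held. Those of Hbq1b, Add2, Icam4, Gata1, Tal1 and Nfe2 at 3 d were lost in at least 1 setting. The difference for Slc4a1 was -2.86 ± 0.56 at 3 d and -3.89 ± 0.59 at 7 d (adjusted p of 1.11e-04 or smaller, limma). For Hbb-bs it was -2.92 ± 0.51 at 7 d and for Klf1 -3.17 ± 0.52. The differences not called were those of Fech, Urod and Cpox at both times and of Slc25a37 at 3 d. Fech differed by -0.17 ± 0.20 at 7 d, Urod by 0.31 ± 0.19 and Cpox by 0.12 ± 0.25. At 3 d the values were -0.19 ± 0.19 for Fech, 0.07 ± 0.19 for Urod, -0.05 ± 0.24 for Cpox and -0.72 ± 0.30 for Slc25a37 (adjusted p = 0.0629, limma). Without library 1 of the 7 d femurs, 26 members differed at 7 d, with a median of -3.41, and the difference was -4.60 ± 0.50 for Slc4a1 and -3.78 ± 0.46 for Klf1.

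**Figure D4:**
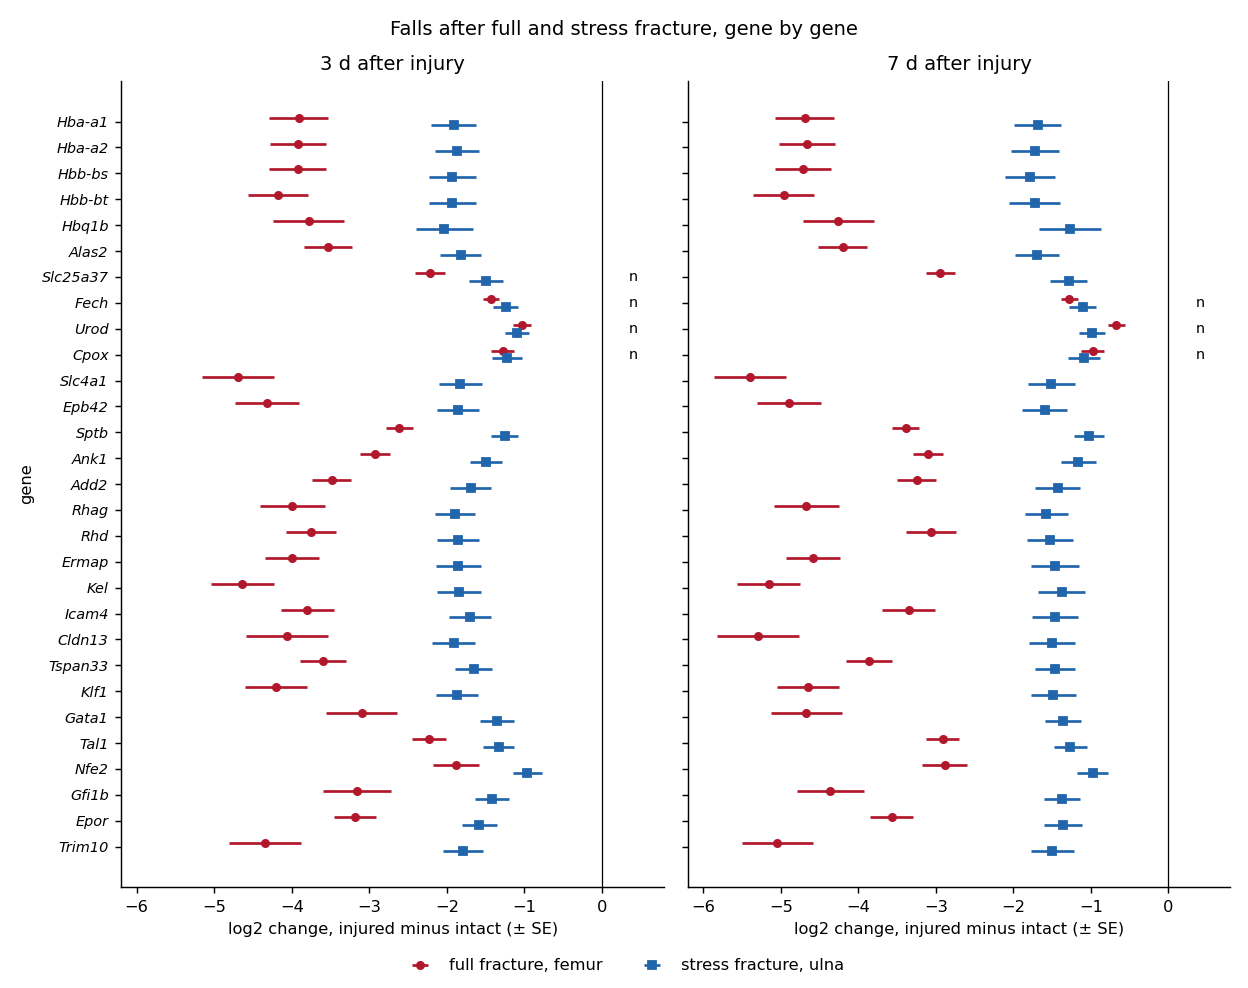
Log2 change (horizontal axis, ± standard error) of 29 erythroid genes (vertical axis) in fractured femurs (red circles) and in stress fractured ulnas (blue squares), each against intact bone of its kind, at 3 d and 7 d; n marks genes whose responses were not called different. At 7 d the femur values of 26 genes lie from -5.40 to -2.89, left of their ulna values, and those of Fech, Urod and Cpox lie between -1.28 and -0.68.

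Part of the femur level was back at 14 d. Of the 29 members, 21 were higher at 14 d than at 7 d (median difference 1.65), where 14% of all genes were. Under every alternative and with each library left out, 17 of these 21 calls held. The median difference ran from 0.91 to 2.05 over those settings. Cldn13 had 4.38, 5.87, 1.06, 2.57 and 2.68 scaled RPKM at 14 d, against 4.38, 0.0495, 0.318, 0.268 and 0 at 7 d, a difference of 2.89 ± 0.61. Klf1 had 5.49, 5.37, 1.35, 2.89 and 4.16 at 14 d, against 3.89, 0.275, 0.688, 0.745 and 0.148 at 7 d (2.23 ± 0.46). The 14 d and 7 d libraries overlapped for every member, and for Cldn13 library 1 at 7 d lay within the 14 d range. Hbq1b, Fech, Urod, Cpox, Ank1, Rhd, Icam4 and Nfe2 were not called, and without library 1 the count was 25 with a median of 2.05, and the difference was 3.76 ± 0.45 for Cldn13 and 2.83 ± 0.38 for Klf1. In ulnas no member differed between 7 d and 3 d by limma (median 0.22, range -0.01 to 0.77), none had an unadjusted p under 0.05, and 2.31% of all genes were called higher and 5.13% lower.

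Intact ulnas carried more erythroid RNA than intact femurs. On a scale fitted over both bones, 20 of 29 members were higher in intact ulna (median 0.82), where 18% of all genes were. Hba-a1 had 1077 to 1769.9 (median 1407) scaled RPKM in intact ulnas, against 338 to 729.5 (median 612) in intact femurs (1.36 ± 0.29), with no overlap. Klf1 had 28.7 to 62.9 (median 44.9) in intact ulnas, against 13.7 to 31.8 (median 20.3) in intact femurs (1.19 ± 0.30), with overlap. The bones did not overlap for 7 members, Hba-a1, Hba-a2, Alas2, Fech, Urod, Epb42 and Trim10, against 3.02% of all genes. Hbb-bs, Hbb-bt, Sptb, Ank1, Rhag, Ermap, Kel, Cldn13 and Epor were not called. Under every alternative and with each library left out, 18 of the 20 calls held, all but those of Hbq1b and Slc4a1. The copy ratio Hbb-bs over Hbb-bt was 5.00 to 6.29 in intact ulnas, against 3.32 to 3.98 in intact femurs, while Hba-a1 over Hba-a2 was 1.31 to 1.46 in intact ulnas and 1.27 to 1.44 in intact femurs; neither ratio was tested. Femur marrow had been spun out, and bone and this step cannot be told apart.

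Genes were also set against each other within a library, as log2 ratios on deposited RPKM plus 0.1 with no scaling between libraries. With all libraries, Slc4a1 and Urod are the members with the largest and the smallest fall in femurs at 3, 7 and 14 d. Their ratio is therefore given as a description, and its p-values are not printed. The log2 ratio Slc4a1 over Urod was 3.38 ± 0.18 at 4 h, -0.96 ± 0.98 at 3 d, -2.02 ± 1.56 at 7 d and 0.22 ± 1.09 at 14 d in fractured femurs (mean and SD, n = 5), against 2.70 ± 0.24 in intact femurs (n = 10). In ulnas it was 2.12 ± 0.26 at 3 d (n = 5), against 2.86 ± 0.24 in intact ulnas (n = 9).

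Alas2 was set against Alas1, the form of the same enzyme that all cells use. This pair and that of Hbb-bs and Klf1 were chosen after the changes had been seen, so their p-values are no independent evidence. Their exact two-sided permutation tests were adjusted over 30 tests of ratios. The 30 include those of Slc4a1 over Urod, whose small p-values can lower the adjusted p of the others. The log2 ratio Alas2 over Alas1 was -1.19 ± 1.08 in femurs at 7 d, against 1.95 ± 0.25 in intact femurs (SD, n = 5 and n = 10). It was below 0, so that Alas1 had the higher RPKM, in 4 of 5 femurs at 7 d, library 1 being the exception at 0.54, and in 5 of 5 at 3 d. The difference was -3.15 (adjusted p = 0.00285, exact permutation test). In ulnas at 3 d the ratio was 1.65 ± 0.65, against 3.12 ± 0.33 in intact ulnas, a difference of -1.47 (adjusted p = 0.00333, exact permutation test). The log2 ratio Hbb-bs over Klf1, of a product to its regulator, was 6.47 ± 0.84 in femurs at 7 d, against 6.57 ± 0.23 in intact femurs. Its 10 differences lay between -0.39 and 0.29 and none was called (adjusted p of 0.315 or larger, exact permutation test), although at a pseudocount of 1 the values at 7 d (-1.37) and 14 d (-0.46) were.

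**Figure D5:**
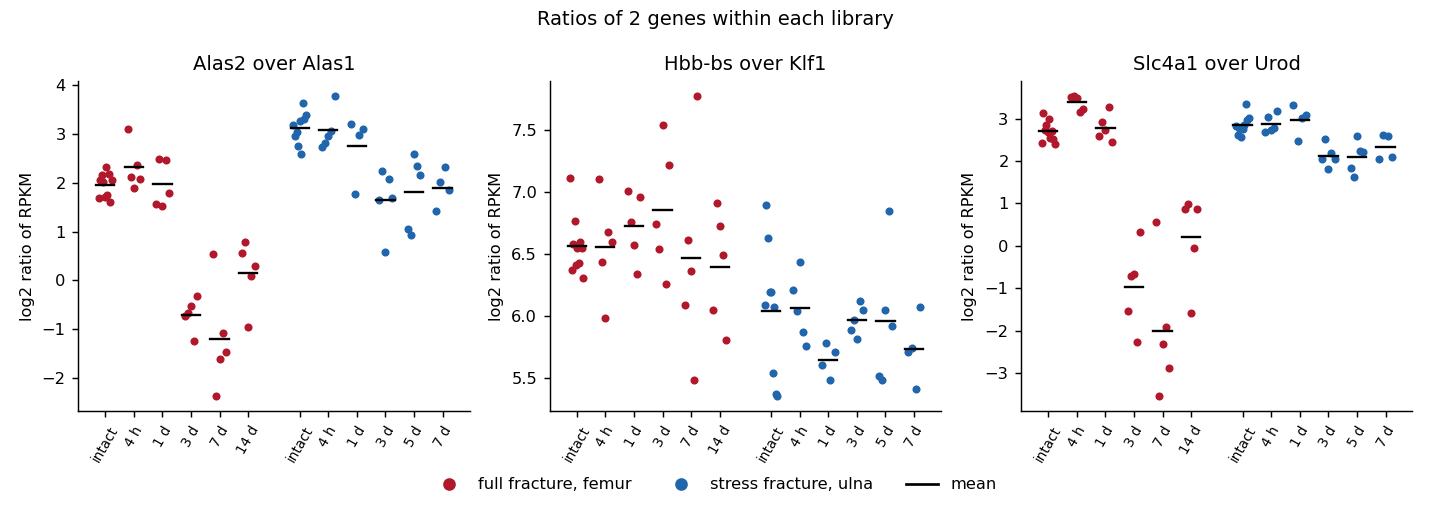
Log2 ratio of RPKM of 2 genes within each library (vertical axis) by bone and time (horizontal axis, intact at the left of each bone), for Alas2 over Alas1, Hbb-bs over Klf1 and Slc4a1 over Urod; points are libraries and lines are means. The means at 7 d in femurs are -1.19, 6.47 and -2.02, against 1.95, 6.57 and 2.70 in intact femurs.

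Other erythroid genes on a list of 34 followed the members. At 4 h after full fracture 27 rose and 1 fell, where 28.3% of all genes rose and 28.5% fell. At 7 d 27 fell and 3 rose (median -2.24), where 33.6% of all genes fell and 32.5% rose. Among the steepest falls at 7 d were those of Hemgn, a nuclear protein of blood progenitors (-4.93 ± 0.45), and Car1, a carbonic anhydrase (-4.84 ± 0.49). The 3 that rose were Fam132b, which encodes erythroferrone (0.69 ± 0.21), the ferrireductase Steap3 (0.44 ± 0.09) and the iron transporter Slc11a2 (0.39 ± 0.08). Fam132b was also the 1 gene of this list called in ulnas at 4 h, where it rose (0.77 ± 0.15) and 5.51% of all genes did. In ulnas at 3 d 30 of the 34 fell and none rose, where 17.6% of all genes fell and 20.2% rose. The transferrin receptor Tfrc was among 3 genes of the list that rose in femurs at 14 d (0.48 ± 0.18), where 27 fell. Of all genes 28.9% rose and 27% fell at that time.

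All 5 other heme enzymes rose at 4 h and fell at 3, 7 and 14 d in femurs, with medians of 0.90, -1.30, -1.30 and -0.99. Of all genes 28.3% rose at 4 h, and 28%, 33.6% and 27% fell at 3, 7 and 14 d. Of 8 tested genes of the erythropoietin and hepcidin axis, 6 rose at 4 h after full fracture. The signal behind these rises was not tested. The kinase Pim1 (2.29 ± 0.15), the feedback inhibitor Cish (1.84 ± 0.19) and the survival protein Bcl2l1 (1.42 ± 0.13), which are known targets of Stat5, rose most among the 8. Cish also rose in ulnas at 4 h (0.92 ± 0.30). Of 9 markers of the macrophages that nurse erythroblasts, 4 rose and 4 fell at 7 d in femurs, where 32.5% of all genes rose and 33.6% fell, so neither count stands far from the share over all genes. Hmox1, heme oxygenase, which breaks heme down, rose (1.19 ± 0.24), and Cd163, the receptor for hemoglobin bound to haptoglobin, fell (-2.63 ± 0.19).

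Markers of other marrow cells moved too, not all with the members, and their part in these results was not tested. The summed level of 11 platelet and megakaryocyte markers was 25.8 to 42.8 scaled RPKM in femurs at 7 d, against 345 to 841 in intact femurs, and all 11 fell. B cell markers summed to 10.5 to 11.7 at 7 d, against 28.3 to 47.5, and 9 of 10 fell. Neutrophil markers summed to 4853 to 15718 at 4 h and 1117 to 2359.6 at 7 d, against 2142 to 4509.7, with 8 of 10 higher at 4 h and 9 of 10 lower at 7 d. Macrophage markers summed to 99.8 to 153 at 7 d, against 62.1 to 129.7, and 4 of 6 rose, where 32.5% of all genes did. Neutrophil markers overlapped the intact range in femurs at 3 d, with 678 to 5894, against 2142 to 4509.7. In ulnas at 3 d they summed to 2343 to 6353, against 3474 to 6203, and none of 10 was called. Mast cell and basophil markers summed to 18.5 to 34.5 in ulnas at 5 d, against 11.2 to 26.7, with 5 of 7 higher and 2 lower. In ulnas at 3 d platelet markers summed to 326 to 454, against 344 to 787, and 10 of 11 fell. Of all genes 28.3% rose in femurs at 4 h and 33.6% fell at 7 d. In ulnas 20.2% rose and 17.6% fell at 3 d, and 22.3% rose and 20.9% fell at 5 d. No marker of these lists was at 0 in every library of a group. The medians of the lists in femurs at 14 d were -3.92 for platelets, -2.84 for neutrophils and -0.86 for B cells, against -2.58 for the erythroid members.

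Markers of the cells of the callus and of muscle changed over the same times, and their part in the falls of the members was likewise not tested. Chondrocyte markers summed to 3059.5 to 7617 scaled RPKM in femurs at 7 d, against 45.6 to 131 in intact femurs, and all 5 rose. In ulnas at 5 d they summed to 376 to 1392, against 5.63 to 21.02 in intact ulnas, and all 5 rose. Osteoblast and osteocyte markers summed to 13422 to 16727 in femurs at 14 d, against 3323 to 9895, with 6 of 9 higher and 2 lower. Skeletal muscle markers summed to 1382 to 8183 in femurs at 7 d, against 7899.8 to 25305, and all 7 fell. Of all genes 32.5% rose and 33.6% fell in femurs at 7 d, and 28.9% rose and 27% fell at 14 d. In ulnas at 5 d 22.3% rose.

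The authors' deposited table of their own tests listed all 29 members at each of the 10 times. It called 29 higher in femurs at 4 h, where it called 31.9% of its genes higher, and gave Slc4a1 1.58 ± 0.19. It called 7 lower at 1 d, where 31.6% of its genes were, namely Sptb, Ank1, Ermap, Kel, Tspan33, Gfi1b and Epor. All 29 were lower in the authors' deposited table at 3 and 14 d, where 34.4% and 34.4% of its genes were. At 7 d in femurs it called 28 lower, where 38.8% of its genes were, and gave no adjusted p for Trim10, with Slc4a1 at -4.10 ± 0.54 and Urod at -0.72 ± 0.11. In ulnas the authors' deposited table called 0 members at 4 h, where it called 9.37% of its genes higher and 8.12% lower. It called 8 lower at 1 d, where 8.46% of its genes were, and all 29 lower at 3, 5 and 7 d, where 24.9%, 27.4% and 23.3% of its genes were.

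Scaling between libraries bears on how calls split over all genes. With RPKM as deposited, higher calls were 37.99% of all calls in femurs at 4 h, 35.6% at 7 d and 71.5% for 14 d minus 7 d, against 49.8%, 49.2% and 44.4% with scaling. In ulnas they were 32.8% at 4 h, 30.7% at 5 d and 38.2% at 7 d, against 51.5%, 51.6% and 53.6%. For full minus stress fracture they were 65.2% at 1 d, 63.1% at 3 d and 39.1% at 7 d, against 50.8%, 48.2% and 50.1%, and for intact ulna minus intact femur 78.97%, against 45.3%. The median of all genes then moved by more than 0.1 log2 units, to -0.15 in femurs at 4 h, -0.28 at 7 d, 0.17 for 14 d minus 7 d, -0.18 in ulnas at 5 d, 0.04 for full minus stress fracture at 1 d, 0.05 at 3 d and -0.21 at 7 d, and 0.20 for intact ulna minus intact femur. No called member changed sign under any scaling, and the falls of the members from 3 d on exceed these shifts.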

How the data were processed

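The authors deposited tables of RPKM per gene, 1 for each bone and time, with the intact libraries repeated in each, and a table of log2 fold changes with adjusted p-values. Per the submitters' processing notes, STAR 2.4.2a, Subread, featureCounts 1.4.6, DESeq2 and mm10 were used; no source read here names the gene annotation. Of 70 labelled samples, 67 libraries had columns, and 3 ulna samples were not analysed here. Ulna times come from the names of the deposited sheets, and columns carry no animal number. The sample titles hold 50 animal numbers, 20 of them on both a left and a right limb, so some intact and injured libraries share a mouse. All tests treat libraries as independent, and p-values measure the spread between libraries. The deposited RPKM gave whole reads, within 0.01, for 88.7% to 91.3% of values under 20 reads, which yielded the depth; intervals cover counting error only and none is printed.

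RPKM was scaled by the median of ratios within a bone (factors 0.835 to 1.14 in femurs and 0.905 to 1.11 in ulnas) or over both bones (0.782 to 1.18). The filter on low values asked for 0.5 scaled RPKM in 5 or more libraries, which left 19944 genes in femurs, 20506 in ulnas and 21092 over both. Some 27 names that a spreadsheet had turned into dates were left out in each bone. The log2(scaled RPKM + 0.1) values were tested with limma 3.58.1 (R 4.3.3, trend and robust) in 1 fit per bone or over both, at an adjusted p under 0.05 (Benjamini-Hochberg). The fit was tested on simulated data with known changes. Within-library ratios were compared by exact two-sided permutation tests over libraries (SciPy 1.17.1, Python 3.11.15). Alternatives were other scalings, pseudocounts of 0.01 and 1, no filter, library weights, only the groups compared, and each library left out.

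The members and the gene lists were chosen with earlier results of these data known, so no p is adjusted over a list and no list is tested as a set. All members are named; of the other lists, up to 4 genes in each direction by the largest called change, or the exceptions to a count; some single genes of these lists are not reported here. Promoters were taken from a RefSeq table (GRCm38.p6) and transcripts from GENCODE M21; the planned comparison of globin proteins was not made.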

Additional observations from a re-analysis of the deposited data

Results flagged for a closer look

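A library was set apart where its gap to the nearest of its group, as a share of the range of the group, exceeded the 95% critical value of Dixon's test. This occurred in 29 of 348 combinations of gene and group, where chance gives about 1 in 20. The members of a library move together, so these combinations are not independent and the count is no test. Library 1 of the femurs at 7 d held 14 of them, and was the highest of its 5 each time. Its values in scaled RPKM were 84.1 for Hba-a1, 273 for Hbb-bs, 74.3 for Hbb-bt, 22.7 for Slc4a1, 2.06 for Epb42, 0.944 for Add2 and 2.401 for Rhag. They were 9.12 for Rhd, 2.93 for Ermap, 2.98 for Kel, 1.84 for Tspan33, 2.21 for Gata1, 3.98 for Nfe2 and 5.63 for Trim10.

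Library 2 of the intact ulnas stood apart in 5 genes, with 28.9 scaled RPKM for Cpox, 36.3 for Sptb, 16.2 for Ank1, 21.0 for Kel and 17.0 for Tspan33. Library 5 of the ulnas at 4 h stood apart in 4, with 307 for Alas2, 128 for Slc25a37, 16.6 for Add2 and 41.9 for Nfe2. Library 2 of the intact femurs stood apart for Rhag (22.6) and Gata1 (16.7). The remaining 4 were Alas2 in library 1 (315) and Ank1 in library 4 (20.9) of the femurs at 4 h, Ank1 in library 2 of the femurs at 3 d (1.98) and Hbq1b in library 3 of the ulnas at 3 d (0.685).

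The responses to full and to stress fracture differed, by limma's test of the difference at an adjusted p under 0.05, for 22 members at 4 h, 25 at 3 d and 26 at 7 d.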

How the results depend on the processing

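Of the values of single members under an alternative, 11718 kept their side of the threshold, 200 lost a call, 88 gained one and 0 called values reversed. Values called in neither setting count as kept, even where their sign changed. In ulnas at 4 h, where none was called, the median ran from -0.20 to 0.04 over the settings. All 29 members were called under every alternative and left-out library in femurs at 3, 7 and 14 d and in ulnas at 3 and 5 d, and 28 in ulnas at 7 d. At 4 h in femurs 24 of 28 calls held throughout, those of Cldn13, Gfi1b, Epor and Trim10 being lost in at least 1 setting. With only the groups compared, the count was 6 in femurs at 1 d, against 3, and 2 in ulnas at 1 d, against 1. For full minus stress fracture at 1 d it was 1 with RPKM as deposited (Urod) and 1 with only the groups compared (Nfe2), against 0; the cause was not tested. Leaving out 1 library at a time gave 2 to 4 members in femurs at 1 d, 0 to 2 in ulnas at 1 d (0 without library 2 and 2 without library 1 of that time) and 0 to 1 for full minus stress fracture at 1 d. It gave 24 to 28 in femurs at 4 h, 21 to 25 for 14 d minus 7 d, 15 to 24 for full minus stress fracture at 4 h and 21 to 26 at 3 d. The alternatives not leaving out a library gave 17 to 25, 15 to 29 and 20 to 26 for the last 3. Genes near 0 reads at 3 and 7 d limit how far a fall can be measured. No paired analysis was possible because the table columns carry no animal numbers, although the sample titles show that 20 mice gave both limbs.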
